A study of Mus musculus with 12 samples.

Results

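The transcripts of 35 mouse genes for glutamate receptors and for the scaffold proteins that anchor them at excitatory synapses were measured in poly(A) RNA-seq libraries of hippocampus. The genes were given as a list of symbols, and all 35 were found among the 55421 genes with counts and were among the 22592 genes tested. They comprise 4 AMPA receptor subunits, 6 NMDA receptor subunits, 5 kainate receptor subunits, 1 delta receptor, 6 metabotropic receptors, 2 Homer, 3 Shank, 4 Dlg and 4 Dlgap scaffolds. The 12 libraries fall into 4 groups of 3. WT-Veh and WT-Nut3 are wild-type mice, and KO-Veh and KO-Nut3 are mice that lack functional Fmr1 in the whole body, a model of fragile X syndrome. Nutlin-3, an inhibitor of the ubiquitin ligase MDM2, or vehicle was injected intraperitoneally at 2 months of age, and the tissue was collected at 6 months. All groups were therefore sampled long after the injections had ended. The methods call the 3 libraries of a group biological replicates, and the sex and the reporter alleles of the mice behind these libraries are not given in the sources used here. For other experiments the paper writes the genotypes as Fmr1-/y and Fmr1+/y, which are those of males. Between 17150820 and 20040482 reads per library were counted on genes, with a median of 18092135.

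AMPA, NMDA and kainate receptors are tetrameric ion channels opened by glutamate, and the metabotropic receptors act through G proteins. At the postsynaptic density, Dlg proteins such as PSD-95 (the product of Dlg4) hold receptors in the membrane, Dlgap proteins bind the Dlg proteins, Shank proteins bind the Dlgap proteins, and Homer proteins join Shank to the metabotropic receptor mGluR5. FMRP, the product of Fmr1, binds messenger RNAs and restrains their translation, and the mGluR theory of fragile X holds that signaling through group I metabotropic receptors, of which Grm5 encodes one, runs unchecked when FMRP is absent. Levels are given below as CPM, the share of a library's counts scaled to 1e+06 after TMM normalization, and as CPM per kb of exon where genes are compared with each other. Differences are log2 fold changes with their standard errors (SE) from edgeR, tested two-sided by quasi-likelihood, and P-values were adjusted by the Benjamini-Hochberg method over all genes tested and a threshold of 0.05.

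The targeted gene was examined first. Fmr1 was at 79.5, 75.3 and 77.7 CPM in WT-Veh, at 75.2, 74.0 and 78.3 CPM in WT-Nut3, at 32.7, 32.5 and 37.3 CPM in KO-Veh, and at 30.6, 28.5 and 35.7 CPM in KO-Nut3. Every KO library lay below every WT library, as the labels require, and the KO mean was 42.9% of the WT mean. The log2 fold change of Fmr1 in all KO against all WT libraries was -1.22 (SE 0.055, adjusted P = 1.71e-08 by edgeR). Reads of the disrupted locus were thus still counted in KO.

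The scaffold genes Dlgap3, Shank1 and Shank3 had the lowest P-values of the 35 in the 6 KO against the 6 WT libraries, and all 3 were lower in KO. Dlgap3 encodes SAPAP3, a scaffold that links PSD-95 to Shank, and Shank1 and Shank3 encode large scaffolds at the core of the postsynaptic density. None of the 35 genes passed the adjusted threshold in edgeR in any of the 7 comparisons made, whereas DESeq2 called all 3 of these genes in the pooled comparison, in which it called 0.190% of all tested genes, 43 in number, against 1 by edgeR. The mean of Dlgap3 in KO was 79.7% of that in WT, that of Shank1 83.8% and that of Shank3 82.9%. In bulk tissue, fewer cells of a type and less RNA per cell cannot be told apart.

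The coding sequences of these 3 genes and of Grm5 are shown in part because FMRP has been associated with short motifs in coding RNA. Each sequence below is the window of 90 coding bases within 1 exon that holds the most bases in 2 pairs of motifs, the pair ACTT or else ACTG and the pair AGGA or else TGGA, written as DNA from 5′ to 3′ on the sense strand, with the motif bases in capitals and overlapping matches merged. The sequences and positions are from the GENCODE M21 annotation of GRCm38, and all 4 genes are on the plus strand. The window of Dlgap3 is chr4:127233929-127234018 and holds 7 matches, that of Shank1 is chr7:44313179-44313268 and holds 7, that of Shank3 is chr15:89532121-89532210 and holds 6, and that of Grm5 is chr7:88026579-88026668 and holds 7.
Dlgap3: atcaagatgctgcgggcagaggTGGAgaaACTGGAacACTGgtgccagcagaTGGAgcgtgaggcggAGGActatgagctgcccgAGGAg
Shank1: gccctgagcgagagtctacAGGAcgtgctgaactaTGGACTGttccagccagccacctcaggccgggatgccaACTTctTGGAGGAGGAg
Shank3: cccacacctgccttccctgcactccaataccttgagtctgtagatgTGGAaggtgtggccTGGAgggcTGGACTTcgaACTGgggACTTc
Grm5: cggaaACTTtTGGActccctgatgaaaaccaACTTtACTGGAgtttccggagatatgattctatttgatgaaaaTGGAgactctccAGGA
Such windows are common in coding sequences. By the same rule, 23.75% of 16094 coding sequences of tested genes hold a window at least as rich as those of Dlgap3 and Grm5, 25.51% one as rich as that of Shank1, and 43.13% one as rich as that of Shank3. Over whole coding sequences, the median density of AGGA and TGGA was 16.5 per kb in the 35 genes and 16.3 per kb in 16134 tested genes with a coding sequence, and that of ACTT and ACTG was 7.39 and 8.30 per kb. The 35 genes differ more in length, with a median coding length of 2868 bases against 1389. The coding sequences of Dlgap3, Shank1 and Shank3 are rich in G and C, at 64.8%, 63.6% and 64.6%, which places them at percentiles 97.09, 95.75 and 96.85 of all tested genes, whereas Grm5 is at 51.6%. An alternative added after the data were seen removed a trend from each library. This was the trend of the deviation of each gene from its mean level on GC content of whole transcripts and on exon length. In that fit the log2 fold change in all KO against all WT was -0.29 for Dlgap3, -0.21 for Shank1 and -0.23 for Shank3. Of the 35 genes, 8 were lower at an unadjusted P under 0.05 in place of 12, against 4.09% of all tested genes in that fit. These matches describe letters in the sequence and not sites of binding.

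The 12 values of each of the 3 genes are as follows. Dlgap3 was at 430, 394 and 369 CPM in WT-Veh, at 404, 340 and 364 CPM in WT-Nut3, at 341, 316 and 316 CPM in KO-Veh, and at 268, 301 and 291 CPM in KO-Nut3. The lowest WT library, WT-Nut3 RH9 at 339.7 CPM, lay just under the highest KO library, KO-Veh RH7 at 340.6 CPM, and the other KO libraries lay below every WT library. In all KO against all WT, the log2 fold change of Dlgap3 was -0.33 (SE 0.052, unadjusted P = 1.32e-05, adjusted P = 0.0737 by edgeR). With DESeq2 the adjusted P was 7.46e-06, in edgeR without the library KO-Nut3 RH6 it was 0.0389, and in edgeR with a term for animal numbers of 8 or less against 9 or more it was 0.0196.

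Shank1 was at 876, 841 and 763 CPM in WT-Veh, at 883, 746 and 769 CPM in WT-Nut3, at 715, 703 and 717 CPM in KO-Veh, and at 625, 668 and 660 CPM in KO-Nut3. All 6 KO libraries were below all 6 WT libraries. The log2 fold change of Shank1 was -0.26 (SE 0.049, unadjusted P = 0.000109, adjusted P = 0.181 by edgeR and 0.000434 by DESeq2). Shank3 was at 436, 392 and 387 CPM in WT-Veh, at 422, 397 and 414 CPM in WT-Nut3, at 355, 346 and 368 CPM in KO-Veh, and at 264, 357 and 340 CPM in KO-Nut3. Here too the KO and WT libraries did not overlap, and the KO-Nut3 library RH6 lay far below the other KO libraries. The log2 fold change of Shank3 was -0.27 (SE 0.066, unadjusted P = 0.000858, adjusted P = 0.417 by edgeR and 0.0341 by DESeq2). Shank1 and Shank3 were the only 2 of the 35 genes whose 6 KO libraries all lay below all 6 WT libraries, and 0.359% of all tested genes did so.

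**Figure D1:**
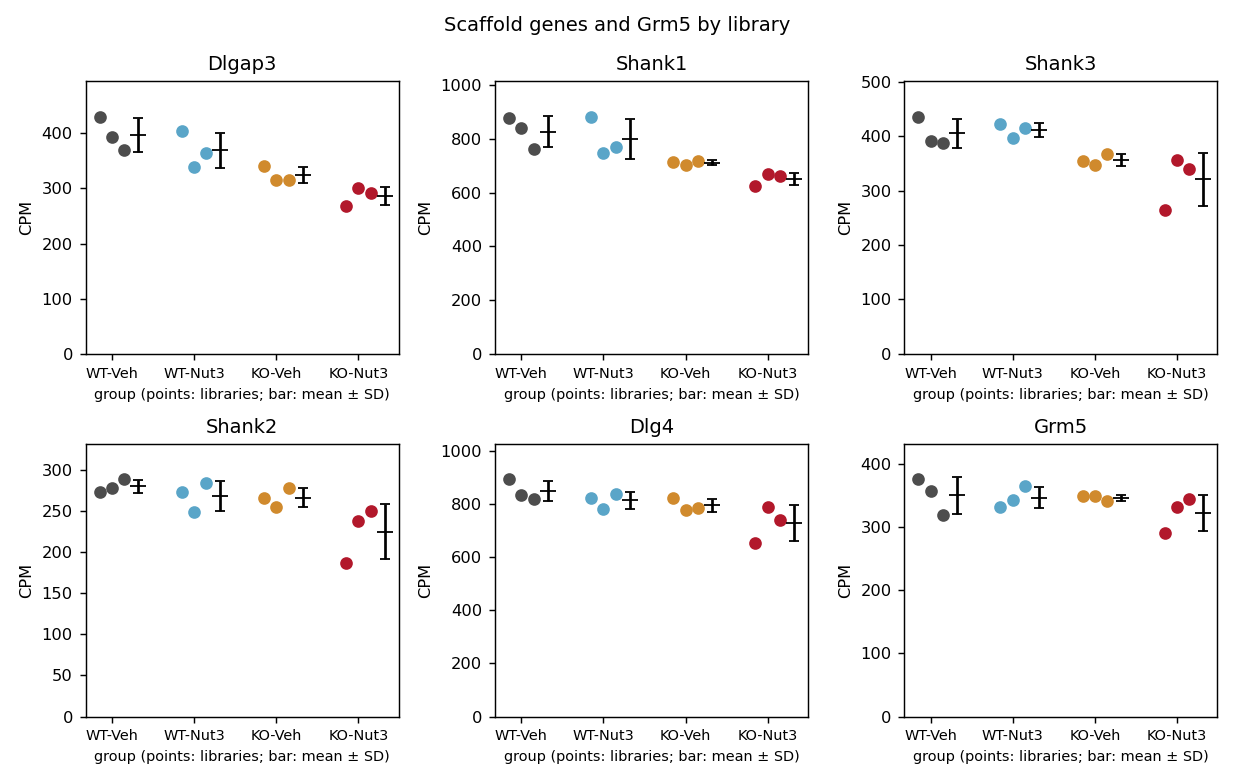
Level in CPM (vertical axis, from 0) of 6 genes in each library, by group, with the mean and SD of the 3 libraries as a bar. The KO libraries of Shank1 and Shank3 sit below every WT library and those of Dlgap3 do so but for 1, the libraries of Shank2, Dlg4 and Grm5 overlap between genotypes, and KO-Nut3 RH6 is the lowest point in each panel.

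In all KO against all WT, 12 of the 35 genes were lower at an unadjusted P under 0.05 and none was higher, against 4.36% of all tested genes lower and 3.80% higher. At the adjusted threshold 0.00443% of the tested genes passed in edgeR, which is Fmr1 alone. The 12 genes were the scaffolds Dlgap3, Shank1, Shank3, Homer3, Dlgap4, Dlg4 and Shank2 and the receptor genes Grid1, Grin2b, Grik5, Grin2a and Grik4 (those beyond the 3 smallest P-values are named after their values were seen). Of the 35, 29 had a negative log2 fold change, with a median of -0.07 against 0.01 over all tested genes. Homer3, a scaffold that binds metabotropic receptors, had a log2 fold change of -0.25 (SE 0.077, adjusted P = 0.436 by edgeR), but 25.4% of its exonic length is shared with a gene on the other strand and the counts carry no strand. Grin2a and Grin2b, which encode the main regulatory NMDA receptor subunits of the adult hippocampus, had log2 fold changes of -0.20 (SE 0.082) and -0.19 (SE 0.075). The AMPA receptor subunit genes Gria1 and Gria2 had log2 fold changes of -0.09 (SE 0.074) and -0.04 (SE 0.066), within 2 SE of 0.

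How much of this rested on single libraries differed between the genes. KO-Nut3 RH6 was the lowest of the 12 libraries for 23 of the 35 genes, against 15.1% of all tested genes, and WT-Veh RH2 was the highest for 18, against 11.5%. Without both libraries, the log2 fold change in all KO against all WT was -0.28 (SE 0.049) for Dlgap3, -0.22 (SE 0.049) for Shank1 and -0.18 (SE 0.038) for Shank3, and 7 of the 35 genes were lower at an unadjusted P under 0.05, against 4.07% of all tested genes in that fit. For Grin2a and Grin2b it was -0.09 (SE 0.050) and -0.08 (SE 0.050) without both libraries. Reads mapped to several places divide the libraries by animal number, up to RH8 and from RH9, in every group. Up to RH8, WT holds RH2 and RH5 (Veh) and RH1 (Nut3), and KO holds RH7 (Veh) and RH6 and RH8 (Nut3). From RH9, WT holds RH15 (Veh) and RH9 and RH14 (Nut3), and KO holds RH10 and RH16 (Veh) and RH13 (Nut3). Genotype and treatment are thus partly mixed within each block, and RH2 and RH6 are both in the block up to RH8. Among the 3 WT and 3 KO libraries up to RH8, the KO mean was 74.1% of the WT mean for Dlgap3, 77.2% for Shank1 and 78.1% for Shank3. Among the 3 WT and 3 KO libraries from RH9 it was 86.1%, 91.3% and 88.0%. These 3 genes were picked on the same libraries, so the blocks are no separate support for them. Over all 35 genes, the KO mean was lower for 30 up to RH8 and for 22 from RH9, against 47.9% and 49.9% of all tested genes. The KO libraries lay below the WT libraries for 13 genes up to RH8, against 8.14% of all tested genes, and for 3 from RH9, against 4.41%. From RH9 they lay above the WT libraries for Gria2, Grin2c and Dlg3, with KO means of 103.2%, 108.7% and 106.2% of the WT means. The share of all tested genes that lay above was not counted in the blocks, so these genes are not read as a result about the 35.

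**Figure D2:**
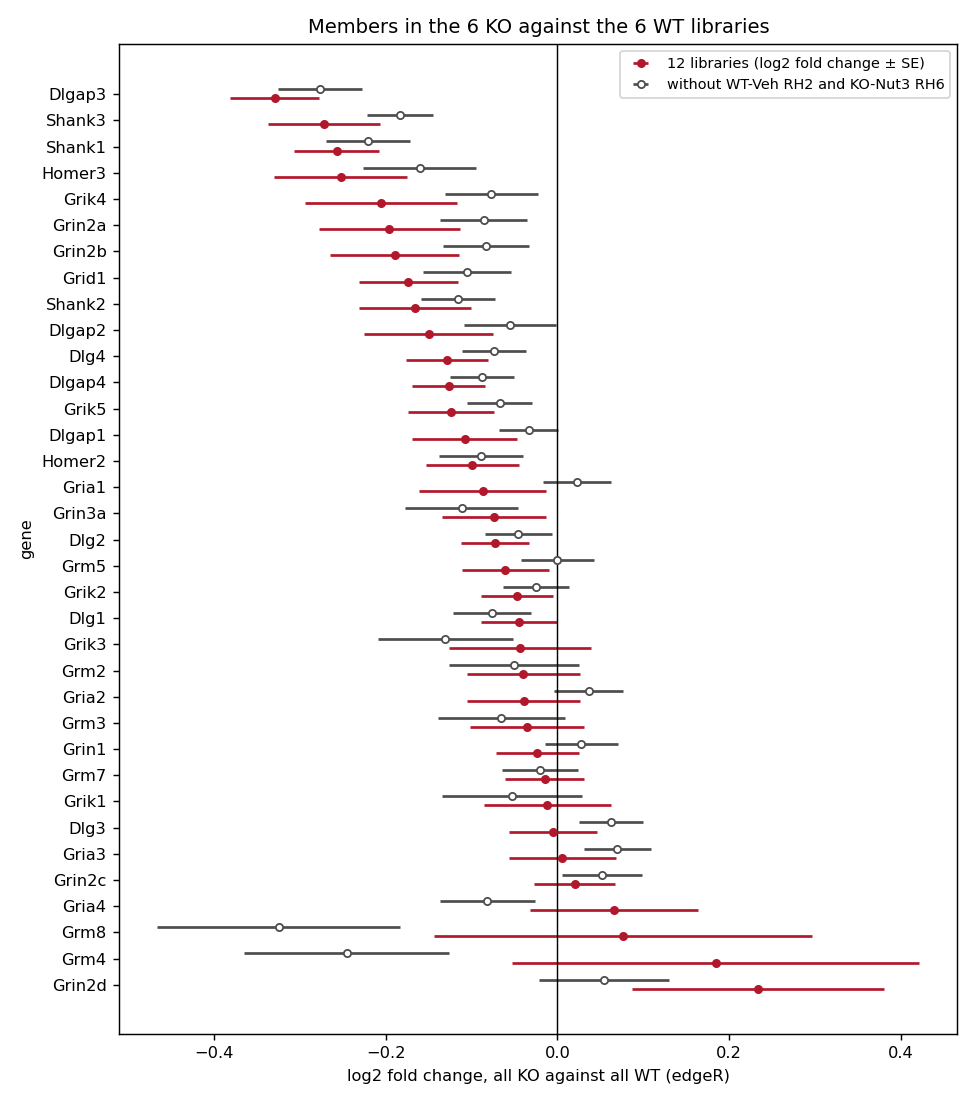
Log2 fold change ± SE of each of the 35 genes in all KO against all WT libraries by edgeR (horizontal axis), with all 12 libraries (filled) and without WT-Veh RH2 and KO-Nut3 RH6 (open). Dlgap3, Shank3 and Shank1 are farthest to the left with all libraries, 29 of the filled points are below 0, and the positive values of Grm4, Grm8 and Gria4 become negative without the 2 libraries.

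Under vehicle alone, the comparison of KO-Veh with WT-Veh asks what loss of Fmr1 does without drug. The same 3 genes had the smallest P-values, and these libraries are part of the pooled comparison in which the genes were picked. The log2 fold change was -0.29 (SE 0.063, adjusted P = 0.405 by edgeR) for Dlgap3, -0.22 (SE 0.058, adjusted P = 0.594) for Shank1 and -0.18 (SE 0.059, adjusted P = 0.610) for Shank3. For Dlgap3 the adjusted P by DESeq2 was 0.0176, and DESeq2 called 0.0974% of all tested genes. In edgeR none of the 35 passed, against 0.0177% of tested genes, while 4 were lower at an unadjusted P under 0.05 and none higher, against 4.12% lower and 3.08% higher of all tested genes. The fourth gene was Grid1, the delta receptor that binds cerebellin family proteins. The 3 KO-Veh libraries lay below the 3 WT-Veh libraries for 4 genes (Dlgap3, Dlgap4, Shank1 and Shank3) and above them for 2 (the AMPA subunit gene Gria3 and the NMDA subunit gene Grin2c). Over all tested genes, 6.46% lay below and 5.90% above.

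Grm5 was examined for its place in the mGluR theory. It was at 375, 357 and 318 CPM in WT-Veh, at 331, 342 and 364 CPM in WT-Nut3, at 349, 348 and 341 CPM in KO-Veh, and at 291, 331 and 344 CPM in KO-Nut3. The WT-Veh and KO-Veh libraries overlapped, and the group means were 350 ± 29.1 and 346 ± 4.41 CPM (SD, n = 3). The log2 fold change of Grm5 in KO-Veh against WT-Veh was -0.02 (SE 0.062, adjusted P = 0.974 by edgeR). In all KO against all WT it was -0.06 (SE 0.051, adjusted P = 0.815 by edgeR), and 0.00 (SE 0.042) without WT-Veh RH2 and KO-Nut3 RH6.

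Under Nutlin-3, KO-Nut3 against WT-Nut3, 9 of the 35 genes were lower at an unadjusted P under 0.05 and none was higher, against 2.08% lower and 2.80% higher of all tested genes. None passed the adjusted threshold in edgeR or DESeq2, against 0.00443% of tested genes in edgeR and 0.0310% in DESeq2. Dlgap3 again had the smallest P-value with a log2 fold change of -0.37 (SE 0.079, adjusted P = 0.928 by edgeR), followed by Shank1 at -0.30 (SE 0.082) and Shank3 at -0.37 (SE 0.105). The groups did not overlap for 9 genes, all lower in KO-Nut3, against 5.35% of tested genes. These were Grin2a, Grin2b, Grik5, Homer2, Homer3, Shank1, Shank3, Dlgap3 and Dlgap4. Without RH6 the values of Dlgap3, Shank1 and Shank3 were -0.32 (SE 0.072), -0.27 (SE 0.079) and -0.24 (SE 0.056). Summed CPM of 5 marker genes of CA1 pyramidal neurons was also lower in KO-Nut3. It was 455, 565 and 554 against 597, 591 and 582 in WT-Nut3, and its part was not tested. KO-Veh against WT-Veh and KO-Nut3 against WT-Nut3 share no library, but Dlgap3, Shank1 and Shank3 were picked in the fit of all 12 libraries. Their return under Nutlin-3 is therefore no separate support for them.

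Other cell types were followed by summed CPM of marker genes. The 5 neuronal markers, of which Snap25 was the most abundant, summed to 4587 to 5039 CPM in the WT libraries and to 4291 to 4907 CPM in the KO libraries. The 6 astrocyte markers, led by Gfap, summed to 1056, 1101 and 1115 CPM in WT-Veh and to 1191, 1128 and 1221 CPM in KO-Veh. All astrocyte markers were detected in every library, and the KO-Veh sums lay above those of WT-Veh. Gfap, Aqp4 and Slc4a4 had log2 fold changes of 0.18 (SE 0.056), 0.26 (SE 0.052) and 0.15 (SE 0.076), and the other 3 were negative, with Aldh1l1 at -0.20 (SE 0.099), Fgfr3 at -0.04 and Gja1 at -0.01. The mean log2 CPM of the 6 markers overlapped between these groups, at 7.19, 7.23 and 7.28 in WT-Veh and 7.26, 7.24 and 7.37 in KO-Veh. The 7 interneuron markers summed to 727, 798 and 731 CPM in WT-Veh and to 804, 814 and 812 CPM in KO-Veh. These sums did not overlap, but the mean log2 CPM did, and Pvalb had a negative log2 fold change, -0.19 (SE 0.097). The 6 neocortex markers, led by Tbr1, summed to 184, 189 and 201 CPM in WT-Veh and to 174, 167 and 166 CPM in KO-Veh. They summed to 218, 168 and 177 CPM in WT-Nut3 and to 173, 163 and 171 CPM in KO-Nut3. The sums were lower in KO-Veh than in WT-Veh without overlap, as was mean log2 CPM, and under Nutlin-3 only WT-Nut3 RH9 lay within the KO-Nut3 range. Tbr1 itself, a transcription factor of cortical projection neurons, had a log2 fold change of -0.29 (SE 0.082, adjusted P = 0.599 by edgeR) in KO-Veh against WT-Veh. Not every marker was lower. Raw counts of Rorb were 315, 347 and 393 in WT-Veh and 395, 314 and 357 in KO-Veh. Those of Fezf2 were 788, 1012 and 851 in WT-Veh and 885, 975 and 744 in KO-Veh. The 5 endothelial markers, led by Flt1, summed to 206, 211 and 214 CPM in WT-Veh and to 196, 178 and 203 CPM in KO-Veh, but to 206, 222 and 218 CPM in KO-Nut3. The sums of WT-Veh and KO-Veh did not overlap, but their mean log2 CPM did, since the lowest WT-Veh value, 5.173, lay below the highest of KO-Veh, 5.177. The part of these lists in the lower scaffold levels was not tested.

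**Figure D3:**
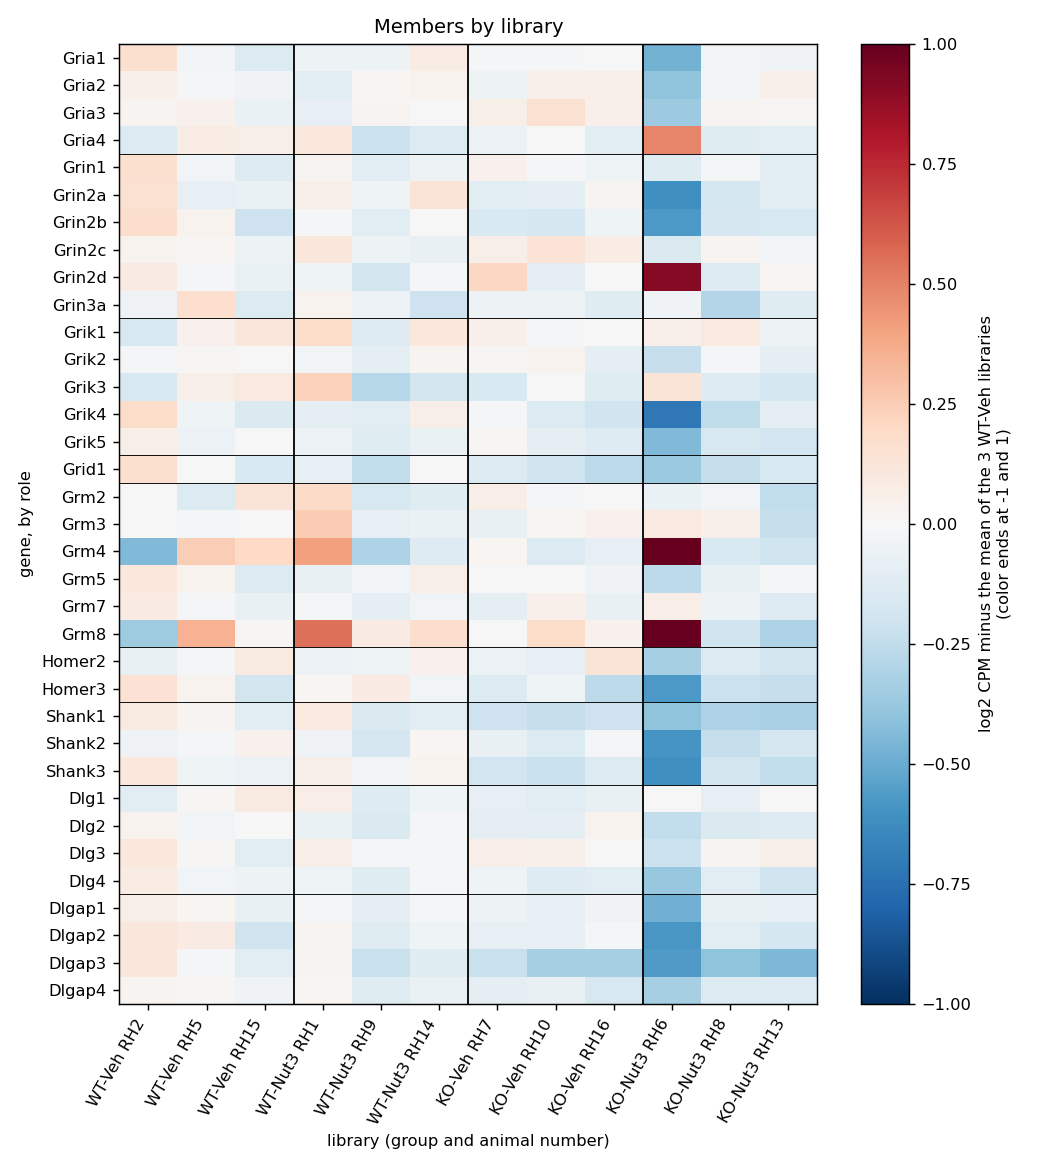
Color gives log2 CPM of each of the 35 genes (rows, by role) in each of the 12 libraries (columns) minus the mean of the 3 WT-Veh libraries. The column of KO-Nut3 RH6 stands out with the lowest value of 23 genes and high values of Gria4, Grin2d, Grm4 and Grm8, and the rows of Dlgap3, Shank1 and Shank3 are blue in all 6 KO libraries.

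The comparison of KO-Nut3 with KO-Veh asks what an early course of Nutlin-3 leaves behind in the mutant hippocampus. None of the 35 genes passed the adjusted threshold in edgeR or DESeq2, against 0.199% of tested genes in edgeR and 1.08% in DESeq2. At an unadjusted P under 0.05, 4 were lower and none was higher, against 1.85% lower and 5.75% higher of all tested genes. Of the 35, 27 (33 without RH6) had a negative log2 fold change, with a median of -0.13 against 0.00 over all tested genes. Homer2 was at 110, 108 and 125 CPM in KO-Veh and at 91.0, 104 and 101 CPM in KO-Nut3, with no overlap. Its log2 fold change was -0.22 (SE 0.079, adjusted P = 0.516 by edgeR), and with 1 library left out it ranged from -0.26 to -0.14. Dlgap3 followed with -0.18 (SE 0.066) and Shank2, a further Shank scaffold, with -0.25 (SE 0.10). In Shank2 the KO-Veh libraries were at 265, 255 and 278 CPM and the KO-Nut3 libraries at 187, 238 and 250 CPM, so that RH6 gave much of the difference. Without RH6 the log2 fold change of Shank2 was -0.13 (SE 0.055), that of Homer2 -0.16 (SE 0.070) and that of Dlgap3 -0.13 (SE 0.055). The libraries of KO-Nut3 lay below those of KO-Veh for 12 genes (Gria1, Gria3, Grin2a, Grin2c, Grik5, Grm2, Homer2, Shank1, Shank2, Dlg2, Dlgap2 and Dlgap3), against 5.44% of all tested genes. Without RH6 the median log2 fold change of the 35 was -0.06. Some marker sums differed between KO-Veh and KO-Nut3 without overlap. Neuronal sums were 4735 to 4907 CPM in KO-Veh and 4291 to 4716 CPM in KO-Nut3. CA1 sums were 575 to 616 and 455 to 565 CPM, and CA2 and CA3 sums 1320 to 1381 and 819 to 1317 CPM. Oligodendrocyte sums were higher in KO-Nut3, at 5122 to 6106 against 4362 to 5033 CPM, as were those of choroid plexus. Mean log2 CPM of CA2 and CA3 and of oligodendrocytes overlapped. Their part in the lower levels was not tested.

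The same drug course was examined in WT mice. In WT-Nut3 against WT-Veh, none of the 35 genes was lower or higher even at an unadjusted P under 0.05, against 1.34% lower and 1.84% higher of all tested genes, and 0% passed the adjusted threshold in edgeR. DESeq2 likewise called none of the 35 and 0% of tested genes. The smallest P-values were those of Grik5, an obligate partner subunit of kainate receptors, with -0.08 (SE 0.056, adjusted P = 0.998 by edgeR), Dlgap3 with -0.10 (SE 0.078) and Grm8 with 0.26 (SE 0.204). With 1 library left out, Dlgap3 ranged from -0.17 (without WT-Nut3 RH1) to -0.05 (without WT-Veh RH2 or WT-Nut3 RH9), Grm8 from 0.10 (without WT-Veh RH2) to 0.45 (without WT-Veh RH5), where 0.11 was reached without WT-Nut3 RH1, and Grik5 from -0.11 to -0.05 (without WT-Veh RH2). For each of the 35 genes the libraries of these groups overlapped. Whether the drug difference itself depended on genotype was tested by the interaction. No gene of the 35 passed at the adjusted threshold (0% of tested genes) or at an unadjusted P under 0.05, against 1.27% lower and 2.90% higher of tested genes, and DESeq2 called none of the 35 and 0.00443% of tested genes. The interaction was -0.19 (SE 0.10) for Homer2, -0.27 (SE 0.153) for Grin2a and -0.13 (SE 0.091) for Grin2c, all with an adjusted P of 0.994 by edgeR. Leaving out 1 library brought it to -0.12 for Homer2 (without KO-Veh RH16), to -0.13 for Grin2a (without KO-Nut3 RH6) and to -0.08 for Grin2c (without WT-Nut3 RH1).

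Over both genotypes, all Nut3 against all Veh, 5 of the 35 genes were lower at an unadjusted P under 0.05 and none higher, against 2.28% lower and 5.02% higher of tested genes. None passed the adjusted threshold in edgeR (0% of tested genes) or in DESeq2 (0.350%). The 3 smallest P-values were those of Dlgap3 at -0.14 (SE 0.052, adjusted P = 0.515 by edgeR), Grik5 at -0.13 (SE 0.050) and Dlg2, which encodes PSD-93, at -0.10 (SE 0.039). With the thalamus marker score or the choroid plexus marker score as a term, 0 of the 35 were lower at an unadjusted P under 0.05, against 1.81% and 1.29% of all tested genes. The log2 fold change of Dlgap3 was -0.11 with the thalamus score and -0.02 with the choroid plexus score, and the number of the 35 with a negative value was 28 and 15, against 28 without a score. Their median was -0.05 with the thalamus score and 0.00 with the choroid plexus score, against -0.08 without. The choroid plexus score was between 2.89 and 6.24 in 4 of the 6 Nut3 libraries and at most 0.417 in the Veh libraries, so that this term and the treatment can hardly be told apart. This comparison shares its libraries with those above.

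The library KO-Nut3 RH6 was examined because it was so often at the extreme. It was the highest of the 12 libraries for 4 of the 35 genes, against 15.3% of all tested genes. Gria4, an AMPA subunit gene, was at 96.2 CPM in RH6 and between 59.1 and 73.6 CPM in the other 11. Grin2d was at 38.9 CPM against 18.2 to 23.8 CPM, Grm4 at 33.6 CPM against 10.2 to 18.4 CPM, and Grm8 at 13.9 CPM against 4.78 to 9.03 CPM (Grm4 is named after its values were seen). In the opposite direction, Gria1 was at 831 CPM against 1051 to 1295 CPM and Dlgap1 at 485 CPM, the lowest of the 12. By role, RH6 was the lowest library for all 3 Shank, all 4 Dlgap and both Homer genes, for 3 of 4 Dlg genes and for 3 of 4 AMPA, 3 of 6 NMDA, 3 of 5 kainate and 1 of 6 metabotropic receptor genes. The median of its log2 ratio to the other libraries was -0.55 for the Shank genes and 0.10 for the metabotropic receptors.

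Markers of other regions moved with this library. The 10 thalamus markers summed to 631 CPM in RH6 and to 396 to 454 CPM in the other 11, and RH6 was the highest for 6 of them. The most abundant was Adarb1 with a mean of 220 CPM, and none was at 0 in any library. The 6 markers of CA2 and CA3 pyramidal neurons summed to 819 CPM in RH6 against 1244 to 1515 CPM, and the 6 markers of dentate granule neurons, led by Prox1, to 325 CPM against 387 to 541 CPM. RH6 was the lowest for 4 of 6 CA2 and CA3 markers and for 5 of 6 dentate markers. All hippocampal markers were detected in every library. Choroid plexus markers, 9 genes led by Ttr, summed to 3500 CPM in RH6, 5030 CPM in KO-Nut3 RH13, 4698 CPM in WT-Nut3 RH9, 373 CPM in KO-Nut3 RH8 and 25.9 to 49.0 CPM in the other 8. Other lists also set RH6 apart. The 6 oligodendrocyte markers, led by Mbp, summed to 6106 CPM in RH6 against 3577 to 5871 CPM, with RH6 the highest for 5 of 6, and the 6 astrocyte markers to 1269 CPM against 1021 to 1253 CPM, with RH6 the highest for 4 of 6. The 7 interneuron markers, led by Gad1, summed to 894 CPM against 727 to 814 CPM, although RH6 was the highest for 4 of them and the lowest for the other 3 (Sst, Vip and Lhx6). The 5 CA1 markers, led by Pex5l, summed to 455 CPM against 554 to 635 CPM. RH6 was the lowest for only 3 of these 5, and the median of their log2 ratio to the other libraries was -0.10. The part of each of these lists in the extreme values of RH6 was not tested. With the thalamus score as a term in all KO against all WT, the log2 fold change was -0.30 for Dlgap3, -0.24 for Shank1 and -0.21 for Shank3. When the choroid plexus score was included instead, it was -0.28, -0.21 and -0.22, and with either term 0 of the 35 genes passed the adjusted threshold of edgeR. At an unadjusted P under 0.05, 7 were lower with the thalamus score and 6 with the choroid plexus score, against 4.37% and 3.03% of all tested genes.

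**Figure D4:**
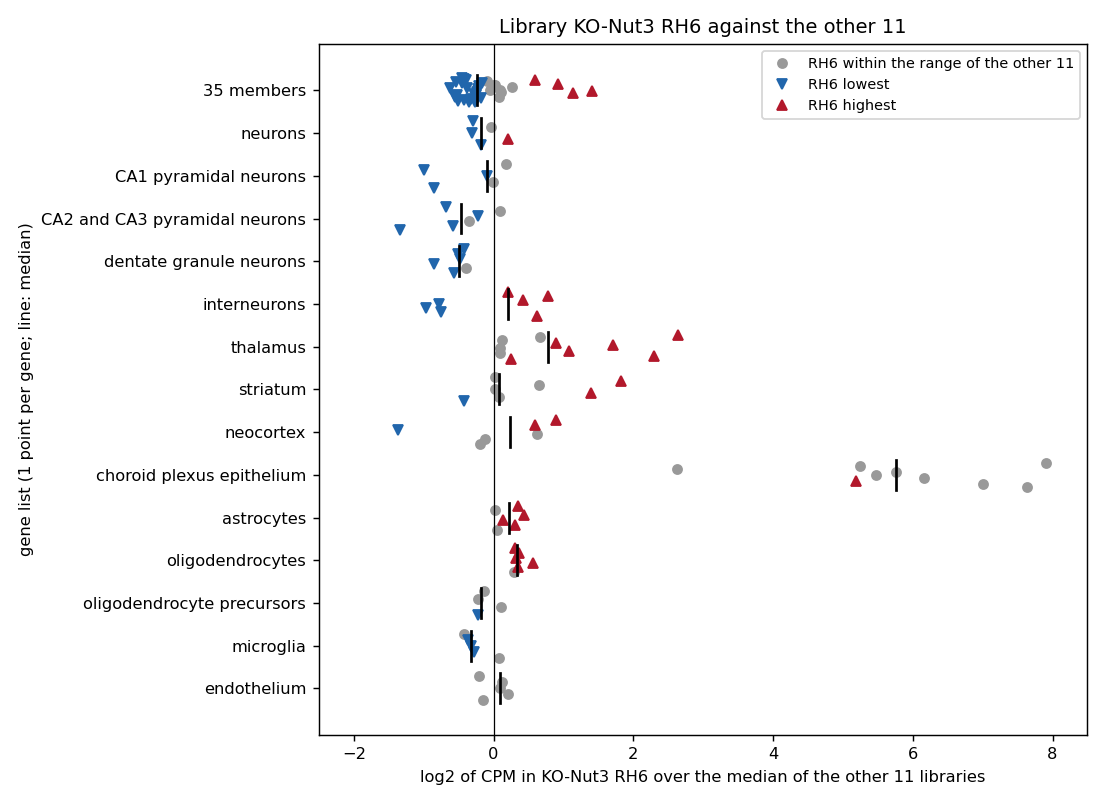
Log2 of CPM in KO-Nut3 RH6 over the median of the other 11 libraries (horizontal axis), 1 point per gene, for the 35 genes and 14 marker lists, with the median of each list as a line. Most of the 35 genes and the dentate and CA markers lie left of 0, the thalamus markers lie at or right of 0, and the choroid plexus markers lie far to the right.

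Compared per length over all 12 libraries, the 35 genes spanned from 0.715 to 186 CPM per kb. Gria1 was the most abundant, at 186 ± 18.1 CPM per kb (SD, n = 12), and Gria4 was the lowest AMPA subunit at 10.9 ± 1.56. Gria1 made up 61.7% to 67.2% of the summed AMPA subunit level and Gria2, the subunit that limits calcium entry, 21.9% to 24.0%. The ranges per kb of the 4 AMPA genes did not overlap. The gap between Gria1 and Gria2 rests on annotated exon lengths of 6043 and 15548 bases, since their mean WT levels were 1155 and 1042 CPM. Among NMDA subunits the obligate subunit Grin1 was highest at 38.6 ± 2.31 CPM per kb and Grin2d lowest at 3.29 ± 0.83. The regulatory subunits Grin2b and Grin2a were at 32.4 ± 3.86 and 21.6 ± 2.66, and the range of Grin2b overlapped with those of Grin1 and Grin2a. Grin2d took 2.46% to 6.00% of the NMDA sum, with the high value in RH6.

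Of the kainate subunits, Grik5 was the highest at 56.3 ± 4.73 CPM per kb and made up 64.7% to 68.2% of the sum, and Grik1 was the lowest at 2.20 ± 0.15. Grid1 was at 12.5 ± 1.25 CPM per kb. Grm5 was the most abundant of the metabotropic receptors at 33.3 ± 2.15 CPM per kb and Grm8 the least at 0.715 ± 0.249. Grm3, a group II receptor also expressed by glia, was at 13.4 ± 1.09, and its range overlapped with that of Grm2. Of the scaffolds, Homer3 and Homer2 were at 8.87 ± 1.14 and 8.73 ± 0.73 and did not differ beyond their spread. Shank1 was the highest Shank gene at 71.1 ± 7.98 and Shank2 the lowest at 24.1 ± 2.59, Dlg4 the highest Dlg gene at 60.02 ± 4.48 and Dlg1 the lowest at 10.7 ± 0.55, and Dlgap3 the highest Dlgap gene at 76.2 ± 10.9 and Dlgap2 the lowest at 12.3 ± 1.40. By the mean over all 12 libraries, Dlgap3 was second only to Gria1 among the 35. Its range, 59.3 to 95.2 CPM per kb, overlapped with those of genes such as Shank1 (59.4 to 84.0) and Gria2 (50.9 to 70.3). The coefficient of variation over the 12 libraries ranged from 4.76% for Grm7 to 41.1% for Grm4.

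**Figure D5:**
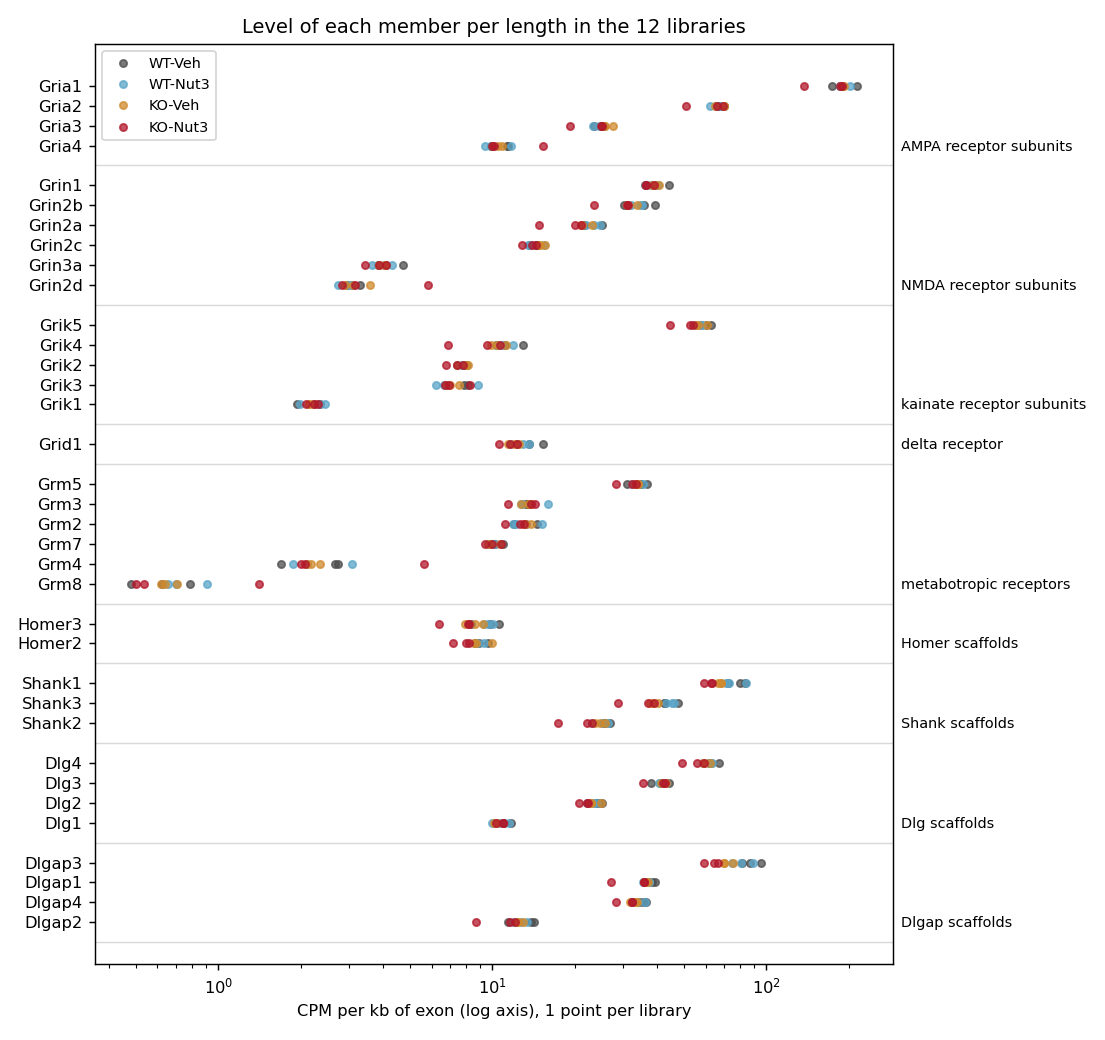
Level of each of the 35 genes in CPM per kb of exon (horizontal axis, log scale), 1 point per library colored by group, sorted by mean within each role. Gria1 is highest and Grm8 lowest, and the points of most genes span a narrow range compared with the distance between genes.

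The balance between related genes was compared across groups by 6 log2 ratios of CPM within a library, tested by exact permutation of genotype within treatment and of treatment within genotype, two-sided, over 400 regroupings each. These ratios are not divided by exon length, so only their differences between groups can be read, and the order of levels is that given per kb above. The smallest P these permutations can give is 0.005, and values were adjusted over the 12 tests. None passed, and all 12 adjusted P-values were 0.945. The log2 ratio of Grin2a to Grin2b was -1.05 ± 0.10 in WT and -1.06 ± 0.05 in KO (SD, n = 6, exact permutation P = 0.855). That of Gria1 to Gria2 was 0.15 ± 0.08 in WT and 0.10 ± 0.05 in KO (exact permutation P = 0.295). That of Gria4 to Gria2 was -3.97 ± 0.19 in WT and -3.86 ± 0.41 in KO (exact permutation P = 0.750), with -3.04 in RH6. The ratio of Grik4 to Grik5 was -2.18 ± 0.10 and -2.27 ± 0.12 (exact permutation P = 0.250), and that of Grm3 to Grm5 was -3.07 ± 0.17 and -3.04 ± 0.19 (exact permutation P = 0.815). Of the 6 ratios, the largest genotype difference was in that of Homer3 to Homer2, which differed by -0.15, from -1.78 ± 0.17 in WT to -1.93 ± 0.16 in KO on the CPM scale (exact permutation P = 0.180). With 1 library left out, this difference ranged from -0.22 (without WT-Veh RH15) to -0.09 (without KO-Veh RH16), and it was -0.10 without WT-Veh RH2. The lowest of these exact permutation P-values was 0.025, or 0.30 after adjustment. For treatment the differences were between -0.01 and 0.11 on the log2 scale.

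A further 56 genes that work with these receptors were taken from 6 lists, and none passed the adjusted threshold of edgeR in any of the 7 comparisons. In all KO against all WT, 8 of the 56 were lower and 2 higher at an unadjusted P under 0.05, against 4.36% lower and 3.80% higher of all tested genes. Of the 56, 44 had a negative log2 fold change with a median of -0.06, while 51.9% of all tested genes had a positive one and their median was 0.01. In KO-Veh against WT-Veh, 7 were lower and 1 higher, against 4.12% lower and 3.08% higher of all tested genes. Among 14 auxiliary subunits of AMPA and kainate receptors, Gsg1l, which slows recovery of AMPA receptors from desensitization, had the smallest P, with 37.7, 36.8 and 50.0 CPM in WT-Veh and 32.2, 29.0 and 29.2 CPM in KO-Veh. The groups did not overlap, and the log2 fold change was -0.46 (SE 0.108, adjusted P = 0.470 by edgeR). Among 11 postsynaptic enzymes and effectors it was Map1b, the microtubule protein whose messenger RNA is a well-known FMRP target, at -0.18 (SE 0.053, adjusted P = 0.608). For the other lists it was Itpr1, the IP3 receptor downstream of Gq signaling, at -0.18 (SE 0.076), Sipa1l1, a postsynaptic regulator of Rap GTPases, at -0.16 (SE 0.064), Akap5, an anchor for kinases at the receptors, at -0.09 (SE 0.059), and Slc17a8, a vesicular glutamate transporter, at 0.31 (SE 0.175).

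In KO-Nut3 against KO-Veh, 3 of the 56 genes were lower and 2 higher at an unadjusted P under 0.05, against 1.85% lower and 5.75% higher of all tested genes. Arc, an activity-regulated gene that promotes removal of AMPA receptors, was at 201, 232 and 270 CPM in KO-Veh and at 155, 187 and 123 CPM in KO-Nut3. The groups did not overlap, and the log2 fold change was -0.60 (SE 0.148, adjusted P = 0.220 by edgeR) and -0.60 (SE 0.150) without RH6. The WT-Veh libraries of Arc ranged from 91.7 CPM in RH2 to 207 CPM and overlapped with those of KO-Veh. In KO-Veh against WT-Veh the log2 fold change was 0.64 (SE 0.20, unadjusted P = 0.00698, adjusted P = 0.608 by edgeR). The low value of RH2 entered this fold change and the interaction. The interaction for Arc, given after its values were seen, was -0.76 (SE 0.306, unadjusted P = 0.0265, adjusted P = 0.994 by edgeR). Plcb4 and Slc17a6, a phospholipase of the Gq pathway and the vesicular glutamate transporter VGLUT2, had log2 fold changes of 1.22 (SE 0.458) and 1.96 (SE 0.853). Both rested on RH6, at 109 CPM for Plcb4 and 113 CPM for Slc17a6, against at most 30.7 and 22.2 CPM in the other 11 libraries. Without RH6 the values were 0.27 (SE 0.137) and -0.36 (SE 0.172). The remaining lists gave Shisa7, an auxiliary AMPA receptor subunit, at -0.28 (SE 0.114), Gripap1, a trafficking partner, at -0.12 (SE 0.055), and Sipa1l1 at -0.19 (SE 0.089). Without RH6 these were -0.15 (SE 0.062) for Shisa7, -0.11 (SE 0.055) for Gripap1 and -0.09 (SE 0.056) for Sipa1l1.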

How the data were processed

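Per the labels and the methods, the authors mapped reads to mm10 with STAR and deposited raw read counts per gene, with no normalization. The counts over both strands were used, since each strand held 50.1% to 50.4% of reads. STAR leaves reads that overlap more than 1 gene out, 4.95% to 5.32% per library. The labels give single reads and the methods paired ends, and the counts do not show which applies. Groups came from the labels. Genes with more than 20 counts in total (22592) were tested with edgeR 4.0.16 (TMM, quasi-likelihood, R 4.3.3), each pair of groups on its 6 libraries, and pooled comparisons and the interaction on 12. SE is the log2 fold change over the square root of F. Log2 levels used a prior count of 1. Exon lengths and positions are from GENCODE M21. A marker score is the mean log2 CPM of a list. DESeq2 1.42.0, other filters, the number block, score terms and leaving out each library were alternatives. A deposited table of all libraries was not used.

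The 35 genes and all lists were chosen with earlier results of these data known. The genes named are, in each comparison, those past the threshold and the 3 with the smallest P-values, the highest and lowest per length in each role, Fmr1, Grm5, the members of the ratios, and for each list of partner genes those past the threshold, or otherwise the 1 with the smallest P-value in KO-Veh against WT-Veh and in KO-Nut3 against KO-Veh. Others are named after their values were seen. The fits were tested on simulated data.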

Additional observations from a re-analysis of the deposited data

Results flagged for a closer look

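Values of the 35 genes were compared within the 6 KO and the 6 WT libraries, and a library was singled out where its gap to the nearest other one, divided by the range, exceeded Dixon's 95% critical value. This held for 17 of 70 sets, and 15 of the 17 were the library KO-Nut3 RH6. The nominal rate of the rule is about 1 in 20, and its rate over all tested genes was not counted. RH6 was also the lowest of the 12 libraries for 15.1% of all tested genes and the highest for 15.3%. RH6 was far below the other KO libraries for Gria1 at 831 CPM, Gria2 at 791 CPM, Gria3 at 189 CPM, Grin2a at 265 CPM, Grin2b at 584 CPM, Grm5 at 291 CPM, Shank3 at 264 CPM, Dlg3 at 207 CPM, Dlgap1 at 485 CPM, Dlgap2 at 53.7 CPM and Dlgap4 at 239 CPM. It was far above them for Gria4 at 96.2 CPM, Grin2d at 38.9 CPM, Grm4 at 33.6 CPM and Grm8 at 13.9 CPM. The others were Grin3a at 42.1 CPM in KO-Nut3 RH8, the lowest KO library, and Grm3 at 48.6 CPM in WT-Nut3 RH1, the highest WT library. The genes share libraries and are not independent of each other.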

How the results depend on the processing

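No paired analysis was possible because the groups share no animal numbers. The number of the 35 genes past the threshold, 0 in each comparison with edgeR, became 1 (Dlgap3) in KO-Veh against WT-Veh with DESeq2 and with every gene of at least 1 count, which called 22 and 272 genes in all. In all KO against all WT it became 3 (Dlgap3, Shank1 and Shank3) under both of these and 1 (Dlgap3) with the number block, which called 43, 239 and 10 genes in all against 1, and it ranged from 0 to 1 when each library was left out. Leaving out RH6 gave the 1. The number lower at an unadjusted P under 0.05, a count added after the values were seen, was 12 there and became 7 with the thalamus score, 6 with the choroid plexus score and 7 without WT-Veh RH2 and KO-Nut3 RH6, and with single libraries left out it ranged from 7 (without WT-Nut3 RH14) to 13. In KO-Nut3 against KO-Veh it was 8 with every gene of at least 1 count, where 2 were higher, against 2.11% lower and 5.08% higher of all genes in that fit. It was 2 with the number block, against 1.37% of all tested genes. With libraries left out it was 1 (without KO-Veh RH7 or RH16) to 9 (without KO-Nut3 RH8). In all Nut3 against all Veh it was 8 with every gene of at least 1 count, where 1 was higher, against 2.42% lower and 4.61% higher of all genes in that fit. It was 0 with either score, against 1.81% (thalamus) and 1.29% (choroid plexus) of all tested genes, and 2 without both libraries, against 2.23%. With 1 left out it was 2 (without WT-Nut3 RH9, KO-Veh RH7 or KO-Veh RH16) to 8 (without WT-Veh RH15), and 3 without RH6. In the interaction it was 3 with every gene of at least 1 count, where 3 were also higher, against 1.93% lower and 3.39% higher of all genes in that fit. It was 1 with the thalamus score and 1 without both libraries, against 1.02% and 1.17% of all tested genes. With 1 left out it was 0 to 2 (without KO-Nut3 RH13). With 1 library left out it was 3 to 8 (without WT-Veh RH15) in KO-Veh against WT-Veh, 4 (without WT-Nut3 RH14, and 5 without RH1) to 11 in KO-Nut3 against WT-Nut3 and 0 to 1 (without WT-Nut3 RH1) in WT-Nut3 against WT-Veh. The shares of all tested genes were not counted in the fits with 1 library left out, so those ranges describe the 35 only. A group left with fewer libraries was assumed to vary like the others. The fold change of Grm5 reversed in KO-Veh against WT-Veh with the number block (0.0198) and ranged from -0.0747 to 0.0347 (without WT-Veh RH2) with libraries left out, and in all KO against all WT it was 4.59e-05 without both libraries. The fold changes of Dlgap3, Shank1 and Shank3 were negative in all alternatives run for all KO against all WT, between -0.36 and -0.28, -0.29 and -0.21, and -0.30 and -0.18. Fmr1 in KO-Nut3 against WT-Nut3 missed the threshold without WT-Nut3 RH14 (adjusted P = 0.0991 by edgeR). The differences of the ratios with 1 library left out, none of which passed, ranged for genotype from -0.0394 to 0.0244 (Grin2a to Grin2b), -0.0685 to 0.19 (Gria4 to Gria2), -0.0419 to 0.10 (Grm3 to Grm5), -0.0708 (without WT-Veh RH15) to -0.0173 (without WT-Veh RH2) (Gria1 to Gria2) and -0.136 (without KO-Nut3 RH13) to -0.0415 (without KO-Nut3 RH6) (Grik4 to Grik5). For treatment they ranged from -0.0176 to 0.0463 (Grin2a to Grin2b), -0.0305 to 0.0230 (Gria1 to Gria2), -0.0549 to 0.21 (Gria4 to Gria2), -0.0535 to 0.0412 (Grik4 to Grik5), -0.00313 to 0.14 (Grm3 to Grm5) and -0.0366 to 0.0873 (Homer3 to Homer2). The cause of these changes was not tested. With 3 libraries a group, errors cover the spread between these libraries only.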
